A study of Mus musculus with 6 samples.

Results

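Matrix mineralisation in growing cartilage was followed through 7 genes, Alpl, Phospho1, Smpd3, Enpp1, Ank, Slc20a1 and Slc20a2, out of 43346 in the deposited table. Polyadenylated RNA had been sequenced from primary chondrocytes of the epiphyses of 5-day-old C57BL/6 mice, freed from the matrix by collagenase. There were 3 wild type and 3 Girk3-null libraries, each from mice that the labels call male. Girk3, encoded by Kcnj9, is a subunit of G protein-gated potassium channels, and how the null allele was made is not given in the sources used here. The 7 genes were chosen by name for their roles in mineralisation, with the genotype differences of Alpl, Phospho1 and Smpd3 in these same libraries already known. Their differences between genotypes are therefore a description of these libraries, and the p-values given for them are those of the fit over all genes, not support for the choice.

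Cartilage mineral begins in matrix vesicles, small membrane sacs that chondrocytes shed into the matrix, and its growth depends on the balance of phosphate and pyrophosphate. SMPD3, a neutral sphingomyelinase, cleaves sphingomyelin and releases phosphocholine. PHOSPHO1 is a phosphatase inside the vesicle that frees phosphate from phosphocholine. Tissue-nonspecific alkaline phosphatase, the product of Alpl, sits on the outer surface of the membrane and hydrolyses pyrophosphate, an inhibitor of crystal growth. ENPP1 makes that pyrophosphate from nucleoside triphosphates outside the cell, and ANK is a membrane protein needed for its export. SLC20A1 and SLC20A2, also called PiT-1 and PiT-2, carry phosphate into cells together with sodium.

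Total counts per library ranged from 34279516 to 60392837. The Kcnj9 transcript could not check the genotype labels, since every library held 0 counts of it. At 0 the true level may still be up to 3 counts, for counting error only, or between 0.0497 and 0.0875 CPM, a unit that divides counts by the library total. Girk3-null replicate 1 stood apart: the Y-linked genes Uty, Kdm5d, Eif2s3y and Ddx3y summed to 16088 counts there and 0 to 7 in each other library, and Xist had 19 counts there and 67346 to 144825 in the others. The sex label thus did not match the transcripts of 5 libraries. The only library with high Y-linked and low Xist counts was Girk3-null, so sex by transcripts was not balanced between the genotypes. Its part in the differences was not tested. The numbers in the sample titles fall below 200 for Girk3-null replicate 1 and the first 2 wild type replicates, and above 200 for the other 3. What these numbers stand for is not stated, so values are also given within each range. Col2a1, the main collagen of cartilage, measured 28876 to 54964 TMM-scaled CPM in wild type and 51295 to 88069 in Girk3-null libraries.

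All 7 genes had wild type means above the median of all 17554 tested genes, which was 4.01 RPKM (reads scaled by gene length and library total). Slc20a1 stood at 92.3 ± 10.9, Ank at 85.3 ± 18.1 and Enpp1 at 82.6 ± 2.79 RPKM (mean ± SD, n = 3). These 3 ranges overlapped, so their order was not separable. Only 2.63% to 2.96% of tested genes had a higher wild type RPKM than these 3. Smpd3 at 14.05 ± 2.61, Phospho1 at 13.8 ± 0.669 and Slc20a2 at 12.9 ± 1.22 RPKM formed a second level, again with overlapping ranges. Alpl was lowest at 7.45 ± 0.563 RPKM, and 35.7% of tested genes had a higher wild type RPKM. Its highest wild type library, at 7.87 RPKM, lay below the lowest wild type library of any other gene of the 7. In the Girk3-null libraries the order differed. Slc20a1 was at 75.4 ± 7.06, Enpp1 at 63.7 ± 5.66, Ank at 57.4 ± 10.3 and Smpd3 at 57.0 ± 33.7 RPKM. Phospho1 followed at 25.3 ± 8.64, Alpl at 19.4 ± 4.39 and Slc20a2 at 14.1 ± 1.26 RPKM. Smpd3 ranged from 26.5 to 93.2 RPKM in that group, so its place among the higher genes differed from library to library.

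**Figure D1:**
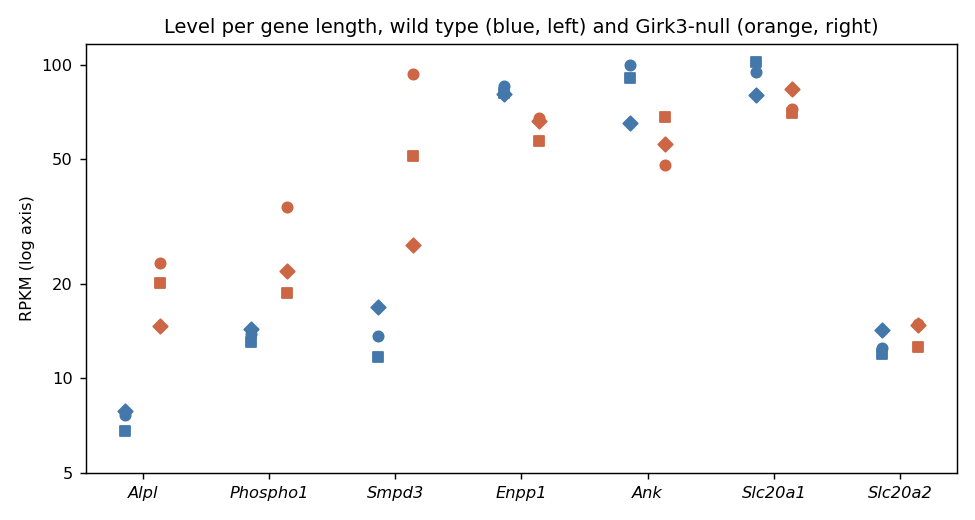
RPKM of the 7 genes on a log axis, with wild type libraries on the left (blue) and Girk3-null libraries on the right (orange) of each gene, and 1 point per library. Wild type Alpl sits lowest at 6.81 to 7.87 RPKM, and Girk3-null Smpd3 is the most spread, from 26.5 to 93.2 RPKM.

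Alpl, Phospho1 and Smpd3, the phosphatases and the sphingomyelinase of the group, had Girk3-null values that all lay above the wild type range. Alpl (ENSMUSG00000028766; mm10 chromosome 4, 137741733 to 137796384, minus strand) measured 29.0, 25.4 and 32.7 CPM in wild type replicates 1, 2 and 3. It measured 96.1, 83.5 and 63.3 CPM in Girk3-null replicates 1, 2 and 3 (CPM here and below is scaled by TMM factors). The lowest Girk3-null library lay far above the highest wild type one, and the wild type libraries were close together. The log2 fold change of Girk3-null over wild type was 1.48 with a standard error of 0.17, and 60 of the 17554 tested genes had a larger one.

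Phospho1 (ENSMUSG00000050860; chromosome 11, 95824499 to 95832140, plus strand) measured 26.4, 24.6 and 30.1 CPM in the wild type libraries. In the Girk3-null libraries it measured 72.6, 39.2 and 47.8 CPM. The groups did not overlap, but Girk3-null replicate 1 was well above the other two. The log2 fold change was 0.98 with a standard error of 0.21, and 0.69 without Girk3-null replicate 1. Phospho1 overlaps Zfp652 on the same strand (30248 counts over all libraries against 11364 for Phospho1), and Zfp652 had a log2 fold change of 0.41. How reads in shared sequence were assigned is not given in the sources used here.

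Smpd3 (ENSMUSG00000031906; chromosome 8, 106252548 to 106337988, minus strand), which supplies the substrate of PHOSPHO1, differed most and varied most. It measured 65.8, 55.7 and 89.3 CPM in the wild type libraries. In Girk3-null replicates 1, 2 and 3 it measured 489, 272 and 146 CPM. All 3 were above the wild type range, and the highest was 3.35 times the lowest. The coefficient of variation was 57.4% in Girk3-null and 24.6% in wild type libraries. The log2 fold change was 2.11 with a standard error of 0.39, with 11 tested genes higher, and it was 1.58 without Girk3-null replicate 1. Smpd3 overlaps Prmt7 on the opposite strand (5289 counts against 55321), which had a log2 fold change of 0.15.

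The pyrophosphate genes lay on the other side of 0. Enpp1 (ENSMUSG00000037370; chromosome 10, 24637914 to 24712159, minus strand) measured 825, 770 and 855 CPM in wild type and 708, 604 and 725 CPM in Girk3-null libraries. Each Girk3-null library was below each wild type library, though the gap between the nearest libraries was smaller than the SD of the Girk3-null group. The log2 fold change was -0.27 with a standard error of 0.12. Ank (ENSMUSG00000022265; chromosome 15, 27466677 to 27594909, plus strand) measured 339, 302 and 242.2 CPM in wild type and 176, 254 and 216 CPM in Girk3-null libraries. Wild type replicate 3 lay below Girk3-null replicate 2, so the groups overlapped. The log2 fold change of Ank was -0.45 with a standard error of 0.17.

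The phosphate carriers had overlapping groups. Slc20a1 (ENSMUSG00000027397; chromosome 2, 129198764 to 129211616, plus strand) measured 496, 526 and 462 CPM in wild type and 411, 403 and 497 CPM in Girk3-null libraries, with a log2 fold change of -0.18 and a standard error of 0.12. Slc20a2 (ENSMUSG00000037656; chromosome 8, 22476700 to 22569607, plus strand) measured 42.7, 40.6 and 53.9 CPM in wild type and 55.2, 47.4 and 57.6 CPM in Girk3-null libraries. Its log2 fold change was 0.23 with a standard error of 0.14. For Slc20a1 Girk3-null replicate 3 lay inside the wild type range, and wild type replicates 1 and 3 lay inside the Girk3-null range. For Slc20a2 wild type replicate 3 lay inside the Girk3-null range, and Girk3-null replicate 2 lay inside the wild type range. Slc20a2 shares its span with the lincRNA Gm17491 on the same strand (3104 counts against 13627) and with Smim19 on the opposite strand (2556 counts).

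**Figure D2:**
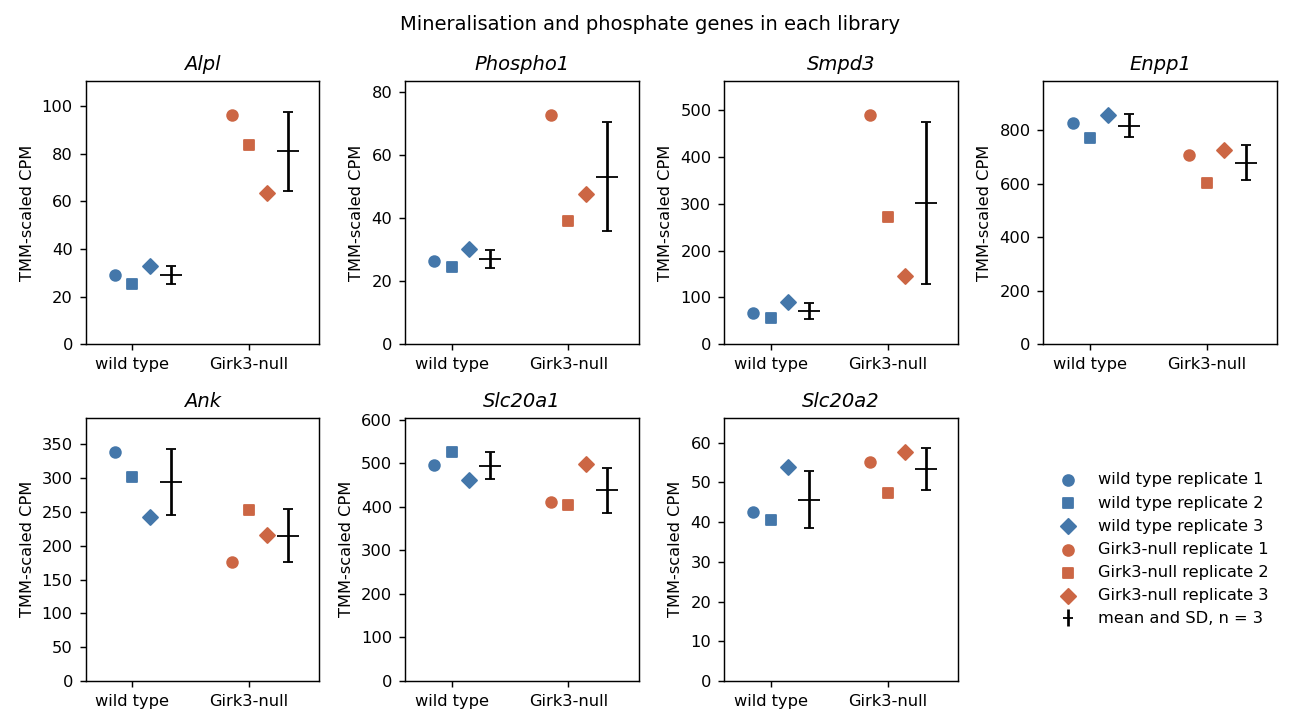
TMM-scaled CPM of each gene in the 6 libraries (points), with the mean and SD of each group (black, n = 3) and axes that start at 0. For Alpl, Phospho1 and Smpd3 the orange points all sit above the blue ones, for Enpp1 they all sit below, and the groups overlap for Ank, Slc20a1 and Slc20a2.

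In the edgeR quasi-likelihood fit over all genes, 0 of the 7 passed an adjusted p of 0.05, where 0.00570% of all tested genes did. Adjusted p was 0.129 for Alpl, 0.291 for Phospho1 and Smpd3, 0.304 for Ank, 0.354 for Enpp1, 0.444 for Slc20a2 and 0.503 for Slc20a1 in edgeR. At an unadjusted p under 0.05 there were 4 of 7 (Alpl, Smpd3, Phospho1 and Ank), where the share of all genes was 14.5%. DESeq2 called 3 of 7, against 1.93% of all genes: Alpl (adjusted p = 4.9e-11), Phospho1 (0.00598) and Smpd3 (0.00782). Without Girk3-null replicate 1 DESeq2 again called 3, and edgeR called 0. The DESeq2 background was then 0.634%. With no filter on low counts edgeR called 3 (adjusted p = 0.0016 for Alpl, 0.01 for Smpd3 and 0.0461 for Phospho1), against 0.194% of genes. Without wild type replicate 3 it called Alpl (adjusted p = 0.0411), against 0.410%. limma-voom called 0. Groups did not overlap with Girk3-null higher for 3 of 7 genes, against 9.86% of all genes, and with Girk3-null lower for 1 of 7, against 10.2%. The median log2 fold change of the 7 was 0.23, beside 0.01 for all tested genes. Because this contrast was known when the genes were chosen, these shares carry no weight as evidence for the group.

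The size of the differences was not the same in the title number ranges. Below 200 (2 wild type libraries and Girk3-null replicate 1), the log2 ratio of mean CPM was 3.01 for Smpd3, 1.82 for Alpl and 1.51 for Phospho1. Above 200 (1 wild type and 2 Girk3-null libraries), it was 1.22, 1.17 and 0.53 in the same order. All 3 were positive in both ranges. Ank had -0.86 below 200 and -0.05 above, and Enpp1 had -0.17 and -0.36. For Slc20a1 the values were -0.31 and -0.04, and for Slc20a2 they were 0.41 and -0.04, so the sign for Slc20a2 held only in the lower range. With 1 or 2 libraries a group no test was made within a range, and the lower range holds the library whose sex-linked transcripts stood apart. In a fit with the range as a covariate the log2 fold changes were 1.495 for Alpl, 1.02 for Phospho1 and 2.12 for Smpd3, with an adjusted p = 0.383 for each in edgeR.

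**Figure D3:**
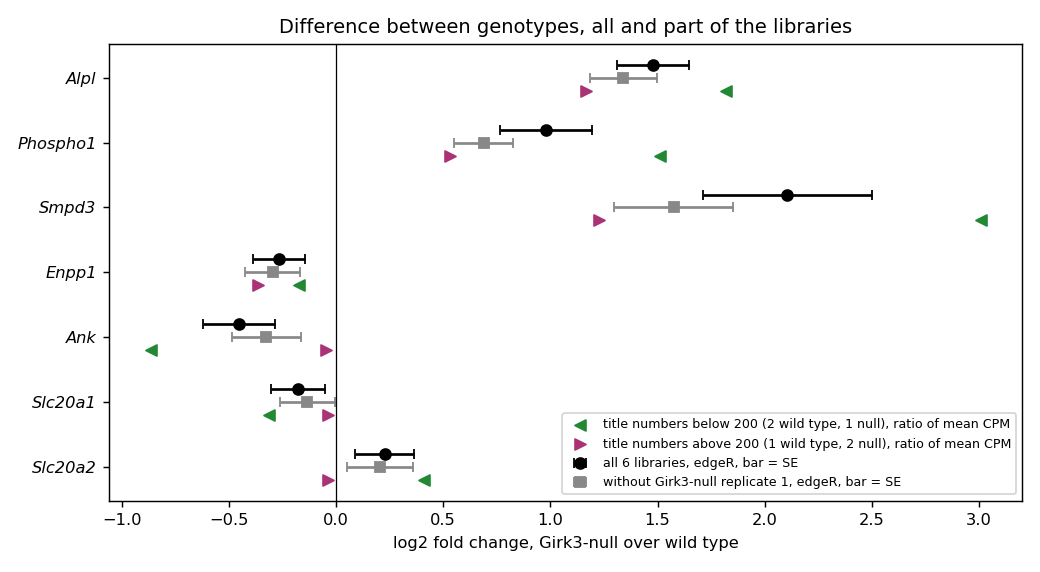
Log2 fold change of Girk3-null over wild type for each gene, from edgeR with all 6 libraries (black, bar = SE) and without Girk3-null replicate 1 (grey, bar = SE), and as ratios of mean CPM within title numbers below 200 (green) and above 200 (purple). Alpl, Phospho1 and Smpd3 are above 0 in every version, and Smpd3 moves from 3.01 to 1.22 between the ranges.

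Ratios of Alpl, for pyrophosphate hydrolysis, to Enpp1, for its production, and to Ank, for its export, were computed per library from RPKM. Alpl over Enpp1 was 0.0893, 0.0840 and 0.0973 in the wild type libraries, against 0.345, 0.352 and 0.222 in the Girk3-null ones. Alpl was thus the scarcer transcript of the pair in every library, by less in the Girk3-null ones. Alpl over Ank was 0.0909 ± 0.0260 in wild type and 0.348 ± 0.122 in Girk3-null libraries (mean ± SD, n = 3 a group), without overlap. Smpd3 over Phospho1, enzyme of supply over enzyme of use, was 0.983, 0.894 and 1.17 in wild type and 2.65, 2.73 and 1.20 in Girk3-null libraries. Girk3-null replicate 3 was therefore close to the wild type range. Slc20a1 over Slc20a2 was 7.23 ± 1.47 in wild type and 5.36 ± 0.424 in Girk3-null libraries, with overlap, and Slc20a1 was the more abundant carrier in all 6. Ratios are built from the values above and add no independent evidence.

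Within the group, patterns over the 6 libraries were compared as the root mean square difference of centred log2 CPM (0 means the same pattern). Alpl differed by 0.35 from Phospho1, by 0.43 from Smpd3, and by 0.66 to 1.02 from the other 4 genes. Phospho1 and Smpd3 differed by 0.65 from each other. Phospho1 was nearer to Slc20a2 (0.42) than to Smpd3, and lay at 0.64 from both Enpp1 and Slc20a1. Enpp1 and Slc20a1 were the closest pair, at 0.13. Alpl and Smpd3 had the same order of libraries, with Girk3-null replicate 1 highest and wild type replicate 2 lowest, and Phospho1 had these same 2 extremes. Ank was lowest in Girk3-null replicate 1. By the same measure, and over 9835 genes above a floor of 3 in mean log2 CPM, the genes most like Alpl were Pth1r, which encodes the receptor of PTHrP (0.13), Wnk4 (0.22) and Gm20547 (0.22). Those most like Phospho1 were Cst3, a secreted protease inhibitor (0.08), Trim46 (0.10) and Isg20 (0.12). For Smpd3 they were Saa3, an acute phase protein, and the secreted Wnt antagonists Wif1 and Frzb (0.32, 0.36 and 0.38). The nearest to Enpp1 was Zbtb41 (0.03), to Ank Prps1l3 (0.04), to Slc20a1 Celf1 (0.02) and to Slc20a2 Cdr2l (0.01). Genes with small differences between libraries lie close to many others, and all values share the same 6 libraries.

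RefSeq promoter windows were found for 5 of the 7 genes (GRCm38.p6, the assembly behind mm10). The 250 bases before the start are shown for the pair of phosphatases with higher values in Girk3-null libraries and for the pair of pyrophosphate genes with lower values, since the members of each pair lay on the same side of 0. Capitals mark matches, on either strand, to 6 short motifs: a Runx motif, the GC box, AP-1, the TATA box, a Sox motif and the E-box, with letters given below. Bases run 5′ to 3′ along the gene's strand.
Alpl, upstream start, chr4:137796385-137796634, minus strand: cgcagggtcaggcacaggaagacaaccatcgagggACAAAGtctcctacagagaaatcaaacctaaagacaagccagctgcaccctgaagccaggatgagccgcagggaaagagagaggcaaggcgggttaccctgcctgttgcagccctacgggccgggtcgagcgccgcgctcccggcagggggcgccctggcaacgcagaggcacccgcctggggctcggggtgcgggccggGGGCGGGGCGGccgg
Phospho1, chr11:95824250-95824499, plus strand: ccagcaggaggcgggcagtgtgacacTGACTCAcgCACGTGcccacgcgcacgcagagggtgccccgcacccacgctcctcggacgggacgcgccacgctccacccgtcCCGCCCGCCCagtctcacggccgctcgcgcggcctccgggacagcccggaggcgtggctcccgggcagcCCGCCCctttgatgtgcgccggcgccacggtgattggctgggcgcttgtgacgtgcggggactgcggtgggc
Enpp1, chr10:24712160-24712409, minus strand: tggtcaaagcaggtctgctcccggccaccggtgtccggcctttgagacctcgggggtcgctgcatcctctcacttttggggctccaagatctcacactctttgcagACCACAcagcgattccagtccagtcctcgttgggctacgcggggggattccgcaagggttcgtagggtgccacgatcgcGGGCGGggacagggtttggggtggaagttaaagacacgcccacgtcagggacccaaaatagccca
Ank, chr15:27466427-27466676, plus strand: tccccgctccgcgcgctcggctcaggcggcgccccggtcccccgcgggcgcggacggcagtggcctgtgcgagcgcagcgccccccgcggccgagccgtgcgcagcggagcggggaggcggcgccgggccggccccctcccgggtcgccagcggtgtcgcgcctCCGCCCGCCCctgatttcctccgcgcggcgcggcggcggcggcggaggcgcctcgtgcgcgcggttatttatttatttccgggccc

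All 4 windows held a GC box (GGGCGG), which 32.7% of 32851 promoter windows of this length hold. They were also rich in G and C, at 68.4% for Alpl, 75.6% for Phospho1, 61.2% for Enpp1 and 81.2% for Ank, against a median of 52.4%. The 2 GC box matches of Alpl overlap, starting 15 and 10 bases before the start. Alpl held a match to the Sox letters ACAAAG 215 bases before the start (16.5% of windows hold one). Phospho1 held an AP-1 match (TGACTCA) 224 bases before the start, found in 4.46% of windows, and an E-box match (CACGTG) 215 bases before it, found in 6.02%. Enpp1 held the Runx letters TGTGGT, on the other strand, 144 bases before the start (14.05% of windows), and Ank held GC boxes only. No motif other than the GC box was shared by the phosphatase windows. The windows of Slc20a1, not shown, also held GC boxes, and its first window held Runx and E-box matches too. Alpl has a second RefSeq start, whose window held the TATA box letters TATAAA (12.4% of windows) and Sox letters but no GC box. Gene-level counts do not tell the 2 starts of Alpl apart. A match describes the letters and not a bound site.

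Genes around the 7 were read from 5 lists, and none of their members passed the edgeR test over all genes. Close relatives of the 7 (other alkaline phosphatases, ENPP and sphingomyelinase enzymes and phosphate transporters) numbered 20, of which 13 had enough counts to test. Of these 8 had positive and 5 negative log2 fold changes, with a median of 0.18, 3 had an unadjusted p under 0.05 (14.5% of all genes), and DESeq2 called 1 as higher (1.03% of all genes). That gene was Smpdl3b, a sphingomyelinase-like phosphodiesterase, at 6.74 ± 0.827 CPM in wild type against 12.6 ± 3.27 CPM in Girk3-null libraries (log2 fold change 0.90; here and below mean ± SD with n = 3 a group). Smpd1, the acid sphingomyelinase, had a log2 fold change of 0.53, Enpp4 of -0.44 and Enpp5 of 0.34. Of the relatives 5 were at 0 everywhere, with the same limit as Kcnj9. Among those, named after their values were seen, were the intestinal alkaline phosphatases Alpi and Akp3 and the kidney phosphate transporters Slc34a1 and Slc34a3. Slc34a2, the other tested sodium phosphate carrier, stood at a mean of 0.0266 RPKM in wild type libraries.

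Phosphocholine supply and matrix vesicle genes had 16 tested members of 17, of which 8 were positive and 8 negative, with a median of -0.01. At an unadjusted p under 0.05 there were 2 of 16, against 14.5% of all genes, and DESeq2 called 0, against 1.93%. Slc44a2, a choline transporter-like protein, measured 224 ± 31.6 CPM in wild type against 339 ± 80.2 CPM in Girk3-null libraries (log2 fold change 0.60), without overlap. Anxa1, an annexin, had a log2 fold change of -0.48, Bmp1, the procollagen C-proteinase, of 0.24, and Smpd1 of 0.53, as above. The annexin Anxa5, abundant in matrix vesicles, was at 276 RPKM in wild type and 229 RPKM in Girk3-null libraries on average, with a log2 fold change of -0.15.

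Pyrophosphate, nucleotide and zinc supply genes had 17 tested members of 18, with 8 positive, 9 negative and a median of -0.09. At an unadjusted p under 0.05 there were 2 of 17 (14.5% of all genes), both called by DESeq2 as higher (1.03% of all genes). Panx3, a channel-forming pannexin of hypertrophic cartilage and bone that can release ATP, measured 17.7, 13.8 and 19.3 CPM in wild type and 25.9, 72.8 and 31.4 CPM in Girk3-null libraries (log2 fold change 1.36). Here Girk3-null replicate 2, not replicate 1, was highest. Adora1, an adenosine receptor, measured 20.3 ± 9.63 CPM in wild type against 42.8 ± 12.4 CPM in Girk3-null libraries (1.08). Panx1 and Slc29a1, a nucleoside transporter, had -0.50 and -0.24. The zinc transporters Slc30a5, Slc30a6 and Slc30a7, which load alkaline phosphatase with zinc, had -0.11, 0.08 and -0.09, all with overlapping groups.

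Mineralisation inhibitors and systemic phosphate regulators had 15 tested members of 17, with 10 positive, 5 negative and a median of 0.22. At an unadjusted p under 0.05 there were 6 of 15, against 14.5% of all genes. DESeq2 called 2, Bglap2 as higher (1.03% of all genes) and Dmp1 as lower (0.900%). Dmp1, a matrix protein of osteocytes, measured 38.2, 30.7 and 16.9 CPM in wild type and 5.58, 13.5 and 13.02 CPM in Girk3-null libraries (log2 fold change -1.43). Girk3-null replicate 1, highest for Alpl, Phospho1 and Smpd3, was lowest for Dmp1. Bglap2, an osteocalcin gene, measured 0.851 ± 0.265 CPM in wild type against 3.08 ± 2.37 CPM in Girk3-null libraries (1.87), and counts may be split uncertainly with its near-identical neighbour Bglap (1.06). Tnfrsf11b, the decoy receptor osteoprotegerin, had -0.52, and Fgf23, a phosphate-regulating hormone, had -1.33, at 0.419 ± 0.172 CPM in wild type against 0.170 ± 0.0464 CPM in Girk3-null libraries, few counts in all. Spp1 (osteopontin) reached 20935 CPM in Girk3-null replicate 1 and lay between 8081 and 10770 CPM in the other 5.

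Regulators of chondrocyte hypertrophy and mineralisation were all tested, 26 of 26, with 18 positive, 8 negative and a median of 0.18. At an unadjusted p under 0.05 there were 7 of 26, against 14.5% of all genes. DESeq2 called 3, all higher in Girk3-null libraries, as were 1.03% of all genes. Pth1r measured 40.8, 29.3 and 48.9 CPM in wild type against 122.8, 99.7 and 78.2 CPM in Girk3-null libraries (log2 fold change 1.34). Dlx5, a homeobox factor of bone and hypertrophic cartilage, had 0.88 and Mef2c, a factor that drives hypertrophy, had 0.67, and both had groups that did not overlap. Vdr, the vitamin D receptor, had 0.63 with groups that did not overlap and was not called by DESeq2. Runx2, the main transcription factor of mineralising cells, was at 80.7 ± 23.8 CPM in wild type against 108 ± 12.98 CPM in Girk3-null libraries (0.42) with overlap, and Trps1 had 0.04.

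Markers of other cells in the digests differed in the same comparison, and their part in the values of the 7 genes was not tested. In bulk RNA, fewer cells of a type and less RNA per cell cannot be told apart. Of chondrocyte markers 9 of 10 had positive log2 fold changes (median 0.60). Their summed levels were 45308 to 79048 CPM in wild type and 70225 to 118184 CPM in Girk3-null libraries. Col2a1 made up most of this sum, at means of 40954.5 CPM in wild type and 70763.2 CPM in Girk3-null libraries. Groups did not overlap with Girk3-null higher for 2 of the 10, Matn1 and Matn3, against 9.86% of all genes. Of hypertrophic markers 6 of 8 were positive (0.49; 4861 to 7049 against 5198 to 6855 CPM), while Col10a1 had -0.29. Of 9 tested osteoblast and osteocyte markers 7 were positive (0.56), at 4078 to 5217 CPM in wild type and 4434 to 6698 CPM in Girk3-null libraries. Most of that sum was Col1a1 and Col1a2, at means of 2207 and 2515 CPM in wild type libraries. Ibsp had a log2 fold change of 0.77 and Dmp1 of -1.43, both without overlap. The 7 tested osteoclast markers had a median of 0.04, with 4 positive, at 305 to 328 CPM in wild type and 310 to 347 CPM in Girk3-null libraries. DESeq2 called 2 chondrocyte, 2 hypertrophic and 2 osteoblast and osteocyte markers as higher, against 1.03% of all genes. It called 1 osteoblast and osteocyte marker as lower, against 0.900%, and 0 osteoclast markers. Marker and pathway lists share genes. The hypertrophic calls were Panx3 and Mef2c, and the osteoblast and osteocyte calls were Ibsp, Bglap2 and Dmp1. Of these, all but Ibsp were already counted in the pathway lists above, so they are not separate findings.

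Endothelial markers were negative in 8 of 8 (median -1.19), at 114.0 to 189.7 CPM in wild type and 24.1 to 90.9 CPM in Girk3-null libraries, lowest in replicate 1. Skeletal muscle markers were negative in 7 of 8 (-1.34; 29.5 to 68.6 against 13.95 to 35.6 CPM) and erythroid markers in 7 of 7 (-1.095; 77.95 to 274.4 against 55.6 to 157.9 CPM). Cell cycle markers were negative in 8 of 8 (-0.997; 222 to 392 against 134 to 173 CPM), and DESeq2 called all 8 as lower, against 0.900% of all genes. Macrophage markers were negative in 6 of 8 (-0.21; 144 to 223 against 121 to 245 CPM). Neutrophil markers were negative in 5 of 7 (-0.25; 204 to 633 against 91.7 to 589.5 CPM). Stromal and perichondrial markers had -0.22 with 4 of 6 negative, and their summed level was highest in Girk3-null replicate 1, at 8941 CPM, against 6222 to 6715 CPM in the other 5. Dcn alone measured 5309 CPM in that library and 1687 to 3052 CPM in the other 5. Lum was also highest there (628 CPM), while Col3a1 (2608 CPM), Pdgfra (233 CPM), Postn (151.5 CPM) and Tnmd (11.7 CPM) were not, so the sum does not speak for the list. DESeq2 also called 3 endothelial and 3 skeletal muscle markers as lower, against 0.900% of all genes, and 0 erythroid, macrophage, neutrophil or stromal markers. No marker of these lists that was found in the table was at 0 in every library, and edgeR called none.

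**Figure D4:**
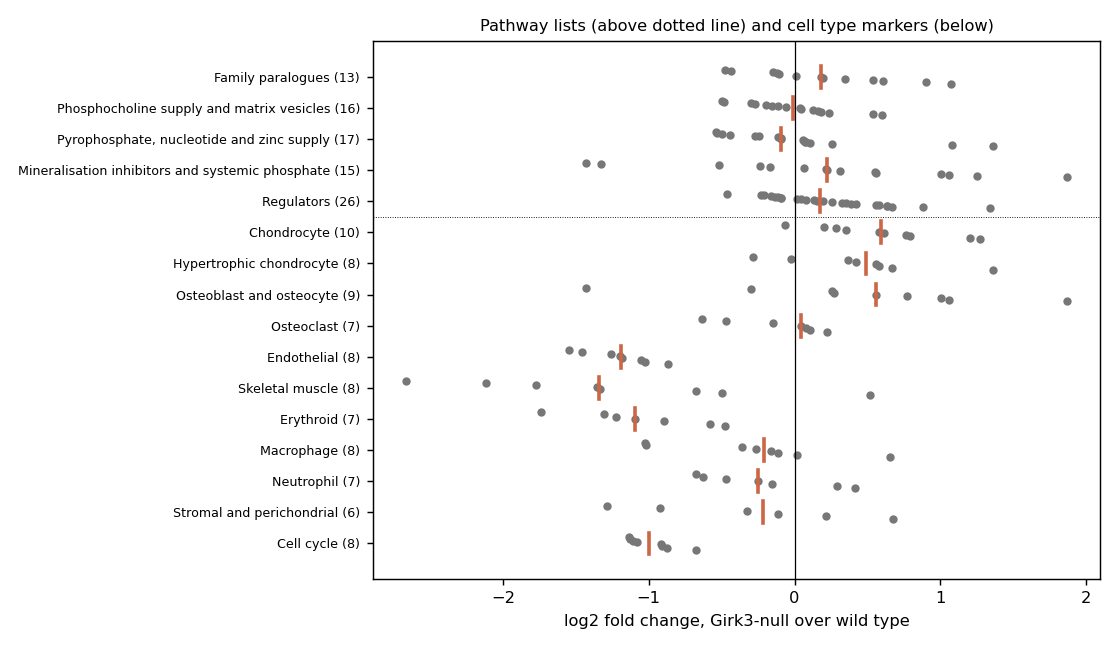
Log2 fold change of Girk3-null over wild type for each tested gene (grey points) of the 5 pathway lists and 11 marker lists, with the list median (orange bar) and the number of tested genes in brackets. Pathway medians lie between -0.09 and 0.22, and endothelial, muscle, erythroid and cell cycle medians lie between -1.34 and -0.997.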

How the data were processed

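RNA libraries of 3 wild type and 3 Girk3-null samples were grouped by genotype label, with replicates numbered in deposit order, so numbers pair nothing. The series calls them biological replicates. The authors deposited raw gene counts, per the file headers, and per the submitters' processing notes the tools were bcl2fastq 2.19.0 and STAR 2.5.2b with the mm10 build. No source used here names the counting tool, annotation or strand setting. The deposited RPKM values equal count over column total over a length 1 base above the listed one, and they served for levels between genes. Genotypes were compared with edgeR 4.0.16 in R 4.3.3 (quasi-likelihood F-test, TMM factors, genotype alone) on 17554 genes kept by filterByExpr (minimum count 10, minimum total 15). Benjamini-Hochberg adjustment ran over all of them (threshold 0.05). Standard errors are the absolute log2 fold change over the root of F. The fit was tested on simulated data. Centred log2 CPM had a prior count of 2. Alternatives were DESeq2 1.42.0, limma 3.58.1 (voom, and log2(RPKM + 0.1) and log2(RPKM + 1)), other scaling, no filter, a covariate for title numbers and leaving out each library. DESeq2 without Girk3-null replicate 1 was added after seeing the data.

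Members and lists were chosen with earlier results of these data known. Named were the 7 members, the 3 genes nearest in pattern to each of Alpl, Phospho1 and Smpd3, and the nearest gene to each other member. Genes with the 4 smallest p-values per pathway list were also named, with further genes for context. Replicates of a group differed beyond counting noise (chi-square per degree of freedom 26.3 to 138), so no 2 of them were copies. Pairs within a title number range had the lowest values, 26.3 for wild type replicates 1 and 2 and 29.8 for Girk3-null replicates 2 and 3. Pairs of a group that crossed the ranges had 83.6 to 138, so replicates were more alike within a range than across ranges. Libraries of different groups were not compared this way. Coordinates are the table's own, 1-based.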

Additional observations from a re-analysis of the deposited data

How the results depend on the processing

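Of 105 recomputed log2 fold changes (7 genes, 15 alternatives), 0 reversed, 95 stayed on the same side of the threshold and 10 newly passed it, all of Alpl, Phospho1 or Smpd3. The 10 came from DESeq2, DESeq2 without Girk3-null replicate 1, edgeR with no filter and edgeR without wild type replicate 3. Over all genes edgeR called 1. DESeq2 called 339, edgeR with no filter 53, and limma-voom, library size only, both RPKM scales and the title number covariate 0. Leaving out each library in edgeR gave 0 to 74, and DESeq2 without Girk3-null replicate 1 gave 114. Of the 7 genes DESeq2 called 3 and edgeR with no filter 3, leaving out a library in edgeR gave 0 to 1, and DESeq2 without Girk3-null replicate 1 gave 3. The cause was not tested. Library size only and log2(RPKM + 0.1) moved the median of all genes by -0.11. No paired analysis was possible because the groups share no replicate number in the labels. P-values reflect the spread of these libraries alone.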
